A study of Caenorhabditis elegans with 2 samples.

Results

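The regions described here are the 4216 places on the X chromosome of Caenorhabditis elegans at which AMA-1, the largest protein of RNA polymerase II, was listed in first-stage (L1) larvae. They are all the regions that the authors' pooled list assigned to X on build ce11, out of 30000 in the genome, and position alone chose them. The pooled list was made from the alignments of both replicates together, and the same chromosome held 3904 of the 30000 regions listed for replicate 1 and 4924 of the 30000 listed for replicate 2. A shorter consensus list held 139 regions on X of 1328 in all. Every one of those 1328 was also among the 1328 regions of highest signal in the pooled list, so pooled signal alone fixed which regions the consensus holds.

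Chromatin was immunoprecipitated with an antibody against AMA-1 from whole L1 animals of N2, the laboratory wild type, which carried no transgene or mutation per the labels, and its DNA was then read by sequencing. There were 2 biological replicates, populations of both sexes and unknown age in 1 group, so there is no second condition. The sources used here give neither the share of males nor the number of reads, and they leave out how the control was made. With 1 group, the comparisons are between X and the autosomes and between the replicates, and no test over samples was possible. Even the most extreme rank of 1 chromosome among 6 has an exact permutation p of 0.167, so X is set beside the range of the 5 autosomes without a test. Signal is the peak caller's own value per region, has no stated unit and was used as deposited. In whole larvae, polymerase on a locus in few cells at high density and in many cells at low density cannot be told apart.

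RNA polymerase II transcribes protein-coding genes and many non-coding RNA genes, and in this species it also continues past the 3′ ends of genes before it is released. In C. elegans, XX hermaphrodites carry a pair of X chromosomes and XO males a single one. A dosage compensation complex related to condensin binds both X chromosomes of hermaphrodites and lowers their transcription, so that X-linked RNA levels are similar in the sexes. The X chromosome is also known for few genes expressed in the germ line and few operons. Of the 18 tissue markers on the list used, 10 had a pooled region, namely 4 of 5 for muscle, 3 of 4 for neurons and 3 of 3 for epidermis. None of the 3 intestinal or 3 germline markers did, elt-2 on X among them. Of all protein-coding genes 42.8% had a pooled region. The regions of the neuronal marker unc-3 (6.22) and the epidermal marker dpy-7 (5.42) were close to the lowest X signal, 5.09. So few markers do not show which tissues contributed, and this was not tested.

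The sequences around the summits of the strongest X regions are given first, because these loci had signals among the 7 highest on X. Each is the plus strand of X on WBcel235 (ce11), read 5′ to 3′, 120 bases centred on the summit. Capitals mark matches, on either strand, to the words searched. The purine word was GAGAGA, which reads TCTCTC on the minus strand. The E-box was CACGTG, the same on both strands. The GATA-type word was TGATAA, which reads TTATCA on the minus strand. The telomere word was TTAGGC. The first is inside C30E1.9, a non-coding RNA gene, at chrX:16929930-16930049. The next lies in tts-1, a long non-coding RNA gene named for its telomere-like sequence, at chrX:1504652-1504771. The third is in R03E9.10, a non-coding gene next to mdl-1, at chrX:6743979-6744098. The fourth is in an intron of mdl-1 itself, at chrX:6742997-6743116, and the last lies beside the mir-54 to mir-56 microRNA cluster inside an intron of F09A5.3, at chrX:13145081-13145200. Not shown are a further C30E1.9 region (pooled signal 221) and W05H9.3 (188), also among those 7. The 120 bases at W05H9.3 held no match to the words searched, and those at the further C30E1.9 region matched GAGAGA.
C30E1.9: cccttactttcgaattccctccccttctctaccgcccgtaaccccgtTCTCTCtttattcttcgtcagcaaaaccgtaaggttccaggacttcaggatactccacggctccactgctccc
tts-1: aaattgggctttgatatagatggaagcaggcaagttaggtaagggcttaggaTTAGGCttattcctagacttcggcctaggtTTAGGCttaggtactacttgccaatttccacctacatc
R03E9.10: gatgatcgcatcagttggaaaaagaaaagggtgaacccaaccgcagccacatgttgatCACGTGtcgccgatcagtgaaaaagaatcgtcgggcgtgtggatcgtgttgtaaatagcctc
mdl-1: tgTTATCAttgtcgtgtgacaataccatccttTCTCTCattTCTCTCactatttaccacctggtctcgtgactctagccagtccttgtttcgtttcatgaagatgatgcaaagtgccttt
mir-54 cluster: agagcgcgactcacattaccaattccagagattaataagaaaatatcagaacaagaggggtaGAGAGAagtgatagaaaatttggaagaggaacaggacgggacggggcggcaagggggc

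The microRNAs of that cluster lie on the minus strand, and the summit at position 13145141 sits upstream of all 3 of them. Their mature sequences were read from the genome at RefSeq's coordinates, with bases 2 to 8, the seed, in capitals. All 3 b-arm products share the seed ACCCGUA, which is that of the mir-51 family, a group that is known to act redundantly in development.
mir-54 b: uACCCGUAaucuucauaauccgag
mir-55 b: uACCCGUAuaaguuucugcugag
mir-56 b: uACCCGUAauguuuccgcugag

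X held fewer of the listed regions than its size would give, and its share was smaller still in the consensus. It makes up 17.7% of the nuclear genome and carries 13.7% of protein-coding genes, and it held 14.1% of the pooled list (exact 95% binomial interval 13.7 to 14.5, which covers only the counting of regions), against 16.5 to 18.3% on each autosome. That is 238 regions per Mb on X and 243 to 398 on the autosomes. X held 10.5% of the consensus list (interval 8.87 to 12.2), against 15.2 to 20.5% on each autosome, or 7.84 regions per Mb on X and 11.5 to 18.9 on the autosomes. Of the X regions 3.3% were in the consensus (139), against 4.07 to 5.35% on each autosome and 4.43% of the whole pooled list. X was the lowest of the 6 chromosomes in its share and density of regions in both lists.

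The replicates gave X different weights in their full lists. X held 13% of the regions of replicate 1, below every autosome (16.5 to 19.0%). In replicate 2 it held 16.4%, inside the autosomal range of 16.2 to 17.1%. Among the 1328 regions of highest signal X was below every autosome in both replicates. It had 9.79% in replicate 1, against 16.3 to 20% on the autosomes, and 11.9% in replicate 2, against 13.9 to 21.6%. The highest 20 regions went the other way, with 4 on X in the pooled list and in each replicate list, a share of 20% whose interval runs from 5.73 to 43.7. The share of X in the pooled list was 9.80% among the highest 500 regions, 11.6% among 5000 and 12.9% among 10000.

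**Figure D1:**
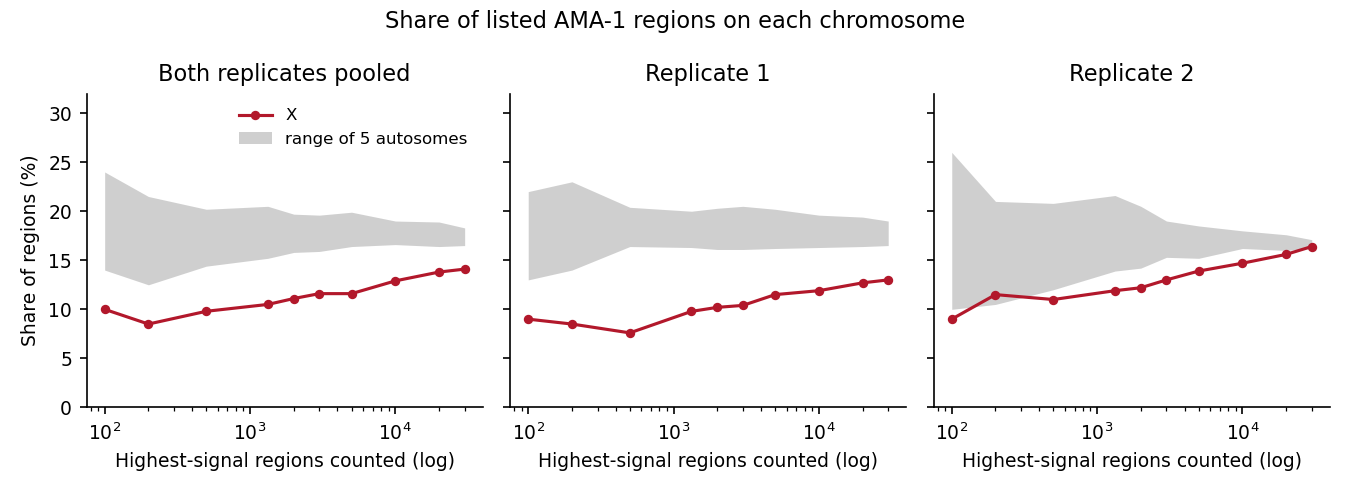
The share of regions on X (red line) is plotted against the number of highest-signal regions counted (log axis) in the pooled list and in each replicate list, with the range of the 5 autosomes as a grey band. X lies below the band at every rank shown in the pooled and replicate 1 lists, from 100 to 30000 regions. In replicate 2 X enters the band at 200 regions (11.5%) and at the full list (16.4%).

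The median signal over all X regions was slightly lower than elsewhere. The median was 9.27 on X and 9.45 to 9.83 on each autosome in the pooled list. It was 6.24 on X and 6.27 to 6.64 on the autosomes in replicate 1, and 4.28 on X and 4.5 to 4.74 on the autosomes in replicate 2, so X was lowest in all 3 lists. The quartiles of pooled signal over X regions were 6.89 and 13.9, and the full range was 5.09 to 379. Within the consensus the median was 45.5 on X and 46.2 to 49.6 on the autosomes. Nearly all regions were 1 width on X (99.4%), and 97.7% of X regions had at least 90% of their 31-base words unique in the genome, against 95.4 to 96.4% on the autosomes.

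Non-coding loci held the strongest polymerase signals of X. The highest X region, in an exon of C30E1.9 (16929822 to 16930223), had a pooled signal of 379 and ranked 7 in the genome. Its signal was 275 in replicate 1 and 111 in replicate 2, and it ranked 6 and 10 in those lists. A further region of C30E1.9, at 16931249 to 16931879, had 221 in the pooled list, 123 in replicate 1 and 100 in replicate 2. The one between them had 95.8, with 60.6 in replicate 1 and 27.7 in replicate 2. This gene thus had 3 consensus regions within 1545 bp, each higher in replicate 1. Another consensus region of the gene, with its summit at 16944173, was higher in replicate 2. It had 48.0 in the pooled list, 24.1 in replicate 1 and 27.4 in replicate 2. The gene had 13 pooled regions in all by the window used here, from 500 bp upstream of a gene's 5′ end to its 3′ end.

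At tts-1, an RNA known to be abundant in dauer larvae and in long-lived daf-2 mutants, the pooled signal was 274, rank 12 in the genome. The replicates gave 181 and 96.3, rank 12 in replicate 1 and 14 in replicate 2. A single interval, 1503810 to 1504917, carries this summit and another pair, of 111 and 61.6, between tts-1 and F09E10.1. The 3 share 1 replicate region, so their replicate values are not separate measurements. The word TTAGGC, the telomere repeat of this species, occurs in 2 places in the tts-1 sequence shown above. It was searched for after that sequence was read. Within 200 bp centred on the summit it occurred in 8 of the 139 X consensus regions (5.76%), in 40 of 1189 autosomal ones (3.36%), in 3.70% of all X regions and in 4.48% of all autosomal ones.

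The region in an exon of R03E9.10 (6743850 to 6744295), whose summit also lies in the window upstream of the non-coding gene R03E9.7, had a pooled signal of 256, with 157 in replicate 1 and 112.4 in replicate 2, the highest value of replicate 2 on X. Its summit is 140 bp past the 3′ end of mdl-1, a Mad-like basic helix-loop-helix factor. W05H9.3, another non-coding gene (6252247 to 6252527), had 188 in the pooled list, 141 in replicate 1 and 56.9 in replicate 2. A further region between genes, 80.6 in the pooled list with 48.1 in replicate 1 and 34 in replicate 2, lies beside it, and the nearest protein-coding 5′ end is that of W05H9.4. The region at the mir-54 to mir-56 cluster (13145003 to 13145257) had 147, with 97.5 in replicate 1 and 54.1 in replicate 2, rank 49 in both. Among the 20 highest X regions, 12 lay in the window of no protein-coding gene, against 2 to 7 among the 20 highest on each autosome. Those 12 include the sites past the 3′ ends of mdl-1, gpd-3, nlf-1, F48D6.4 and mxl-3, outside a gene's window by construction. The rest came from few loci, namely C30E1.9, the single tts-1 interval, and W05H9.3 with the region beside it. Over the whole consensus the count was 57 of 139 on X (41.0%, interval 32.7 to 49.7), against 22.4 to 29.2% on each autosome. Of these 57 summits, 31 were near the 3′ end of a protein-coding gene, mostly past it and so outside its window by construction, 20 were intergenic and 6 were in other non-coding genes. Without those at 3′ ends the share was 18.7% on X, against 12 to 17.8% on each autosome. In the pooled list 28.7% of regions had no protein-coding window on X, against 19.3 to 21.8%.

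The X-linked protein-coding genes of highest signal were mdl-1, F09A5.3, whose intron holds the microRNA region above, osm-11, act-4 and rpl-11.2. Inside mdl-1 an intronic region had 148 in the pooled list, with 108 in replicate 1 and 39 in replicate 2, and a region 152 bp into the gene had 115, with 70.0 and 52.2 in replicates 1 and 2. At osm-11, which encodes a secreted Notch co-ligand, the region 217 bp into the gene had 117, with 71.4 in replicate 1 and 52.6 in replicate 2, on a region shared with the non-coding gene F11C7.9. act-4, an actin gene, had 90.3, with 68.5 in replicate 1 and 22.2 in replicate 2, 59 bp from its 5′ end. rpl-11.2, for a protein of the large ribosomal subunit, had 86.4, with 53.2 in replicate 1 and 33.1 in replicate 2, on a region shared with the non-coding genes linc-78 and AH9.7. H40L08.2, H40L08.7 and H40L08.8 shared a region of 71.3, with 48.5 and 23.2 in replicates 1 and 2.

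All 6 of these regions had the higher signal in replicate 1, as did most X consensus regions. Further down the list, and named here after their values were seen, were sams-1, the main S-adenosylmethionine synthetase (64.4), his-24, a linker histone H1 (60.9), the translation elongation factor gene eef-1A.2 (60.7), aak-2, a catalytic subunit of AMP-activated kinase (58.7), and pdi-2, a protein disulfide isomerase (55.9). An intronic region of the endocytosis gene rme-4 had 64.2, with 37.9 in replicate 1 and 24 in replicate 2. Of the X-linked protein-coding genes, 76 of 2731 (2.78%) had a consensus summit in their window, against 4.98% of the autosomal genes and 4.68% of all 19973. With the pooled list the count was 1011 (37%), against 43.7% of autosomal genes and 42.8% of all.

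Fewer X summits lay at 5′ ends than on any autosome, and more lay away from genes. Summits were placed first at 5′ ends of protein-coding genes (within 500 bp), then at 3′ ends, gene bodies, other non-coding genes and intergenic sequence. On X 877 of the 4216 regions (20.8%, interval 19.6 to 22.1) were at 5′ ends, against 25.6 to 27.9% on each autosome. The share was 20.6% on X and 27.2% on the autosomes together in replicate 1, and 19.7% on X and 25.9% on the autosomes in replicate 2. Intergenic sequence held 20.3% of X regions, against 13.4 to 14.7% on each autosome, and non-coding genes 2.04%, against 0.911 to 1.93%. Shares at 3′ ends (14.8%) and in gene bodies (42.1%) lay within the autosomal ranges.

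Genes on X are fewer per length and longer than on the autosomes, with a median of 2548 bp on X and 1754.5 to 2347 bp on each autosome, and the part of gene density in these shares was not tested. Counted from the genes, 25.5% of X-linked 5′ ends had a pooled summit within 500 bp, inside the autosomal range of 23.5 to 47.8%. For consensus summits the figure was 1.87% on X, below the autosomal 2.98 to 5.23%. Summits at X 5′ ends lay upstream of the annotated end in 54% of cases, with a median position of -31 bp, against 48.0 to 50.8% upstream on each autosome. Within the consensus the upstream share on X was 61.7%, inside the autosomal range of 59.7 to 80.2%. Many transcripts of this species are trans-spliced, so that an annotated 5′ end need not be where transcription starts.

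**Figure D2:**
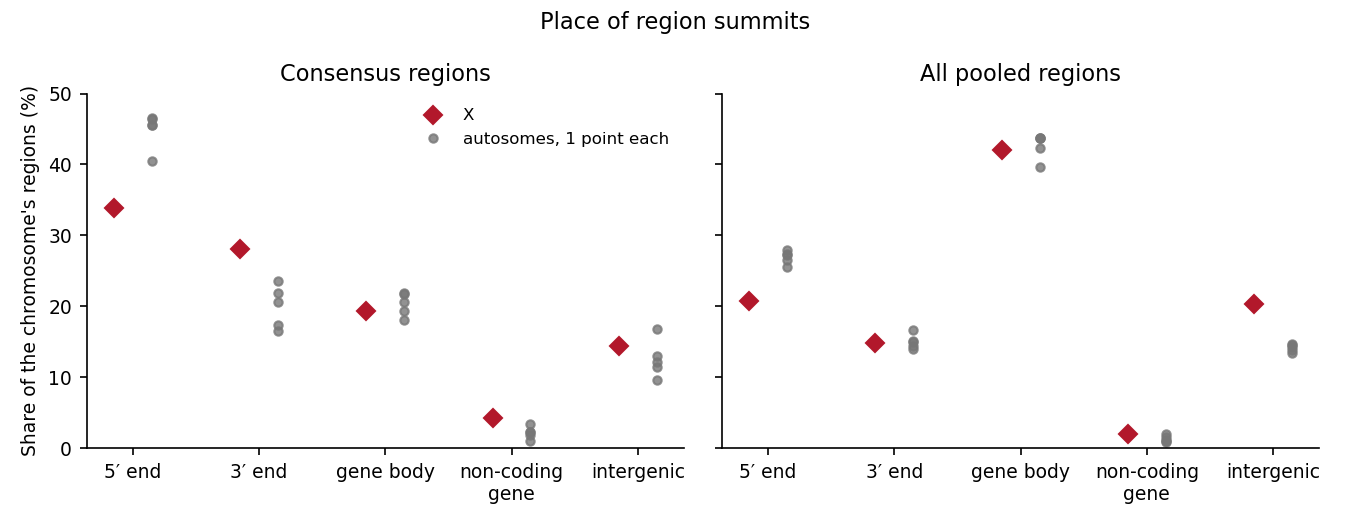
The share of a chromosome's regions in each of 5 places is shown for X (red diamonds) and for each autosome (grey points), on the left for consensus regions and on the right for all pooled regions. On X 33.8% of consensus regions are at 5′ ends and 28.1% at 3′ ends, against 40.5 to 46.5% and 16.5 to 23.5% on the autosomes.

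Within the consensus, 3′ ends held 39 of the 139 X regions (28.1%, interval 20.8 to 36.3), above the 16.5 to 23.5% of each autosome, while 5′ ends held 47 (33.8%, interval 26 to 42.3), below 40.5 to 46.5%. Of the 39 summits, 36 lay past the nearest annotated 3′ end of a protein-coding gene, and the median of all 39 was 138 bp past it. Among the 36, those at snx-17, vang-1, sdpn-1, sfxn-2 and mec-4 also lay inside these named genes, past the 3′ end of a neighbour. After the region at R03E9.10, the highest was 153 bp past gpd-3, a glyceraldehyde-3-phosphate dehydrogenase gene, with 94.3 in the pooled list, 61.8 in replicate 1 and 36.3 in replicate 2. The next was 147 bp past nlf-1, which encodes a protein that helps place sodium leak channels, with 93.8, and 77.4 and 18.7 in replicates 1 and 2. The non-coding gene rncs-1 (1011501 to 1012347) lies between that summit, at 1012568, and another consensus summit, at 1011284 (38.8). The regions past F48D6.4 (93 bp, 90.7) and past mxl-3 (85 bp, 75.6), a Max-like basic helix-loop-helix factor, were also among the 20 highest. By median signal the X consensus regions at 3′ ends stood at 49.2 and those at 5′ ends at 43.5. In replicate 1 the medians were 31.3 and 31.0 for 3′ and 5′ ends, and in replicate 2 they were 17.9 and 17.5. In the pooled list the 3′ median was the higher one on every autosome too. Over the autosomes together it was 49.9, against 47.8 at 5′ ends.

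Some genes had a strong region at each end. The linker histone gene his-24 had 60.9 at 99 bp from its 5′ end and 55.2 at 113 bp past its 3′ end. Its relative hil-3 had 40.1 at 49 bp from the 5′ end and 63.6 at 136 bp past the 3′ end. The collagen gene col-166 had 53.1 at its 5′ end and 66.1 at 239 bp past its 3′ end, and eef-1A.2 had 60.7 and 56.8 at the ends, with the non-coding gene C54D2.14 over the second. These 4 genes were picked after their values were seen. A 3′ region and one of a neighbouring gene's 5′ end cannot be told apart where genes are close together.

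Some consensus regions on X came in groups. With gaps of less than 5000 bp between summits, 12 groups of 3 or more held 40 of the 139 regions (28.8%). They lay at tts-1, at gpd-3 with mai-1, at W05H9.3, at mdl-1 with R03E9.10, at sma-9, at the mir-54 to mir-56 cluster, at mxl-3, at cah-4, at nipi-3 with rab-14, at aak-2 with mec-4, at C30E1.9 and at osm-11. The groups at mdl-1 and mxl-3 thus include members of 1 family, the Mad and Max factors. The group of gpd-3 and mai-1 spans 5383 bp and holds 4 consensus regions from 94.3 down to 42.4, among 10 pooled regions. At aak-2 and mec-4, which encodes a subunit of the touch-sensing sodium channel, 4 consensus regions lay over 6749 bp, from 58.7 down to 39.7. The group at tts-1 is made of 3 summits of 1 interval. The groups follow from the gap chosen, and no test of them was made. Groups on the autosomes were not counted, so the share on X has no value beside it.

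Along the chromosome, X regions were present in every megabase, with no arm left empty. The 17 full bins of 1 Mb held 117 to 334 pooled regions each (median 236) and 1 to 15 consensus regions (median 8). Cut into 3 stretches of equal length, X held from left to right 1290, 1577 and 1349 pooled regions, 41, 47 and 51 consensus regions, and 871, 976 and 884 protein-coding genes. As a description over the 17 bins, which share libraries, Pearson's r was 0.503 between pooled regions and genes per bin and 0.828 between the replicates. Replicate 2 listed more regions than replicate 1 in all 17 bins, by a factor of 1.04 to 1.72, so its larger X count was spread over the whole chromosome.

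The median distance between neighbouring X summits was 0.927 kb in the pooled list and 31.1 kb in the consensus. The widest stretch without a consensus summit was 956 kb (15841279 to 16796965), with 103 protein-coding genes, followed by 955 kb (9262042 to 10217133) with 146 genes. In the pooled list the widest was 179 kb (15848538 to 16027668), inside the first of these stretches, with 20 genes, and the next 177 kb (12210197 to 12386860) with 50 genes. A gap in a list of fixed length shows only that no region there ranked high enough to be listed.

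**Figure D3:**
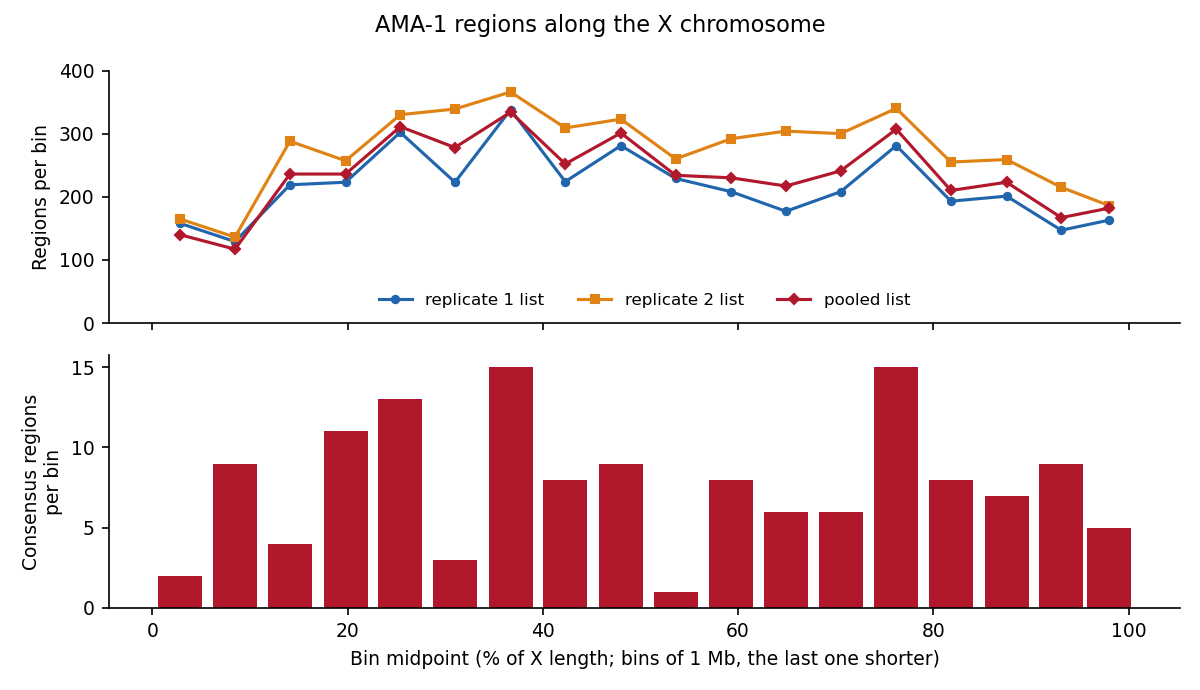
Regions per 1-Mb bin are plotted against position along X in percent of its length, above for the replicate 1, replicate 2 and pooled lists as points joined by lines, and below for the consensus as bars. Replicate 2 lies above replicate 1 in all 17 full bins, and the consensus bars run from 1 to 15.

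How many X regions had a counterpart in each replicate depended on the overlap asked for. By at least 1 bp, a region of both replicates overlapped 2272 of the 4216 X regions (53.9%, interval 52.4 to 55.4), against 54.9 to 58.6% on each autosome and 56.0% of all pooled regions. With an overlap of at least 50% of the shorter region the share was 36.9% on X, against 38.1 to 41.7%, and with summits within 100 bp it was 26.4%, against 27.5 to 30.9%. X was the lowest of the 6 chromosomes by each rule. By 1 bp, replicate 1 alone met 21.4% of X regions, against 23.3 to 26.2% on the autosomes, and replicate 2 alone met 20.4%, against 12.8 to 17.2%. Neither met 183 X regions (4.34%). Where both met a region, the median log2 ratio of replicate 1 to replicate 2 signal was 0.49 on X and 0.58 to 0.62 on the autosomes. In the consensus it was 0.69 on X and 0.82 to 1.01 on the autosomes. X was the chromosome at which replicate 2 stood highest relative to replicate 1 by these measures, and with 2 libraries this cannot be told apart from a difference between 2 populations in sex, stage or preparation.

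Of the 139 X consensus regions, 137 met a region of both replicates, and the remaining pair met replicate 1 only. These were nlp-76, a neuropeptide-like gene, with 69.2 in the pooled list and 61.7 in replicate 1, and a site 194 bp past the 3′ end of osm-11, with 59.3 and 35.5. Replicate 1 had the higher signal at 81.8% of the 137 and replicate 2 at the other 25. The replicate lists are not on 1 scale. Over all their regions the median signal was 6.42 in replicate 1 and 4.53 in replicate 2. In the autosomal consensus the median log2 ratio of replicate 1 to replicate 2 was 0.886, against 0.692 on X. On X signals ran from 7.05 to 275 in replicate 1 (median 30.3) and from 3.62 to 112.4 in replicate 2 (median 19.1). Pearson's r of the log2 signals was 0.445 over these 137 regions and 0.409 over 1164 autosomal ones, a description across regions that share the 2 libraries. Some regions also share their replicate regions, on X those of the tts-1 interval and those at F47B7.12, so the pairs are not all distinct. Among the 1328 highest regions of its own list, replicate 1 had 102 of the 139, replicate 2 had 90, and 62 were so in both. The consensus list on X therefore includes regions that were strong in only 1 replicate.

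Within the X consensus, the 5 regions of largest ratio between their ranks in the replicates went both ways. Replicate 2 was the stronger one past the 3′ end of F44A6.5 (31.9, against 7.05 in replicate 1), at mai-1, a homologue of the mitochondrial ATPase inhibitor (32.4, against 8.55), and in ugt-50 with its intronic microRNA mir-62 (34.1, against 10.6). Replicate 1 was the stronger one at snx-17, a sorting nexin (43.6, against 3.62 in replicate 2), and at serp-1.1 (40.3, against 5.70). In the pooled list these 5 regions ran from 35.6 to 50.6. By the difference in ranks, nipi-3, a kinase-like gene of the immune response, with 31.9 in replicate 1 (rank 683) and 5.01 in replicate 2 (rank 13143), takes the place of ugt-50 among the 5. The pooled limit of the consensus fell between bcat-1, a branched-chain aminotransferase gene (34.4), and fkh-9, a forkhead factor gene (34.5), just inside, and dpy-22, a Mediator subunit gene (34.3), and linc-103 (34.2), just outside. At dpy-22 the replicates gave 25 and 2.96 and at fkh-9 8.72 and 25, for replicates 1 and 2, so single replicates differed by more than the step at that limit.

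**Figure D4:**
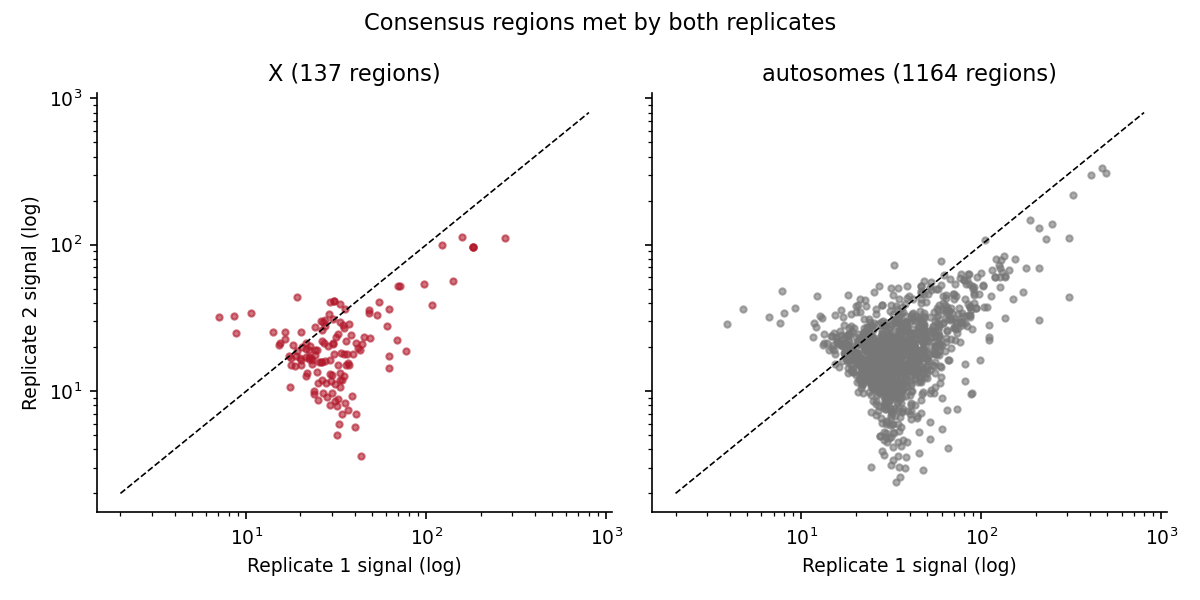
Replicate 2 signal is plotted against replicate 1 signal (both log axes) for consensus regions that met a region of each replicate, with 137 on X at left and 1164 on the autosomes at right. The dashed line marks equal signal. Regions that share both replicate regions fall on the same point. On X 25 points lie above the line and the others, 81.8%, below it.

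The gene lists show which kinds of X-linked genes carried polymerase regions. Their shares stand beside those of all X-linked protein-coding genes, 37% with a pooled region and 2.78% with a consensus one, and no test of a list was made. Of the genes of the X signal and dosage compensation, 6 are on X, and fox-1, an RNA-binding X signal element, was the only one with a pooled region (5 regions, the highest 11.5), against all 8 on the autosomes. xol-1, the switch gene for sex, sdc-1, sdc-2, sex-1 and ceh-39 had none. Of the larval timing genes 2 of 5 had a region (40%), against 62.5% of those on the autosomes. They were lin-14, the transcription factor that specifies first-stage fates, with 30.9 at its highest, and daf-12, a nuclear receptor of the dauer decision, with 11.1. No gene of either list had a consensus region, and a count of 0 is compatible with at most 50% of the first list and 60% of the second.

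Muscle genes on X had a region in 9 of 12 (75%), against 77.8% on the autosomes, and the consensus held act-4 among them. unc-97 and dim-1, which encode proteins of muscle attachments and of the sarcomere lattice, each had 17.7. Neuronal genes had a region in 7 of 17 (41.2%), against 90% on the autosomes, and the highest was mec-4 (40.3, with 33 in replicate 1 and 12 in replicate 2), followed by the gap junction gene unc-9 (8.49) and the channel gene mec-10 (8.27). The mec-4 summit lies toward the 3′ end of that gene, in the group of aak-2. Neuropeptide genes had a region in 7 of 34 (20.6%), against 35.8% on the autosomes, with nlp-3 (15.4) and flp-28 (12.3) after nlp-76. Cuticle collagens had a region in 6 of 30 (20%), against 36.6% on the autosomes. Of these, col-41 (17.8), dpy-8 (16.6), dpy-3 (14.4), col-173 (7.20) and dpy-7 (5.42) met a region of replicate 2 and none of replicate 1, and only col-166 met both, with 26.4 and 26.3.

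Translation and energy genes are few on X. Of 5 translation genes 4 had a region (80%), against 93.9% on the autosomes, and rpl-11.2 and eef-1A.2 were in the consensus, while ife-2, a cap-binding factor, had 12.6. All 4 respiratory chain genes on X had a region, against 88.1% on the autosomes. ucr-2.2, a complex III subunit, had 35, with 18.6 in replicate 1 and 14.9 in replicate 2, and sdha-1, a complex II subunit, had 33.1, with 22.2 and 13.3, while ucr-2.1 of complex III had 24.8. The 5 chaperone genes all had a region, against 81.8% on the autosomes, hsp-3, the endoplasmic reticulum Hsp70, being the highest (22.5) before hsp-43 (21.4) and hsp-25 (20.6), and none was in the consensus, a count that is compatible with at most 60%.

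Regulators differed by family. Nuclear hormone receptors, ligand-dependent transcription factors that are greatly expanded in nematodes, had a region in 18 of 27 on X (66.7%), against 45.7% of the 247 on the autosomes. nhr-17 (55.5), nhr-3 (43.0) and nhr-35 (39.8) were in the consensus, although only 78.1% of the words of the nhr-17 region were unique in the genome. Homeobox genes had a region in 6 of 24 (25%), against 31.5% on the autosomes, led by ceh-63 (17.5), vab-3 (16.1) and alr-1 (12.7). Of 4 GATA factor genes on X only elt-3, an epidermal regulator, had a region (21.1), against 57.1% on the autosomes. Chemoreceptor genes had a region in 1 of 33 (3.03%), srv-6 (7.53), against 6.21% on the autosomes, and the 5 X-linked vitellogenin genes, which make yolk in adult hermaphrodites, in none. No gene of these last 4 families was in the consensus. A count of 0 is compatible with at most 12.5% of the homeobox genes, 9.09% of the chemoreceptors, 75% of the GATA factors and 60% of the vitellogenins.

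Among non-coding classes, 17 of the 74 X-linked microRNA genes (23.0%) had a pooled region, against 39% on the autosomes and 34.5% of all 261. Of these, 5 were in the consensus, mir-54, mir-55 and mir-56, which share 1 region, then mir-55b (39) and mir-62. mir-34, a microRNA of the stress response, had 26.7 from an intergenic summit. Of 276 tRNA genes on X, which RNA polymerase III transcribes, 48 (17.4%) had a pooled region, against 29.8% of 336 on the autosomes. The 5 with a consensus summit lay on 4 regions whose unique share was 68.1 to 88.4%, among the 7 X consensus regions under 90%, and each summit was also near the end of a protein-coding gene, so these regions are uncertain in both respects. Of 33 snoRNA genes on X 8 (24.2%) had a pooled region, against 55.6% of 313 on the autosomes. None on X had a consensus one, a count compatible with at most 9.09%, against 13.1% on the autosomes.

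Some long X-linked genes held many regions, few of them in the consensus. The genes with the most were chosen after their counts were known. nhr-27, a receptor gene of 102756 bp, had 29 summits inside, lin-14, of 20312 bp, had 26, and scd-1, of 21903 bp, had 25. In lin-14 the pooled signals ran from 5.23 to 26.1 with a median of 13.5, between 511 and 20171 bp from the 5′ end, and 18 of the 26 met a region of both replicates. The 30.9 given above is a further summit, upstream of the gene, which met a region of replicate 1 (27.5) and none of replicate 2. In nhr-27 they ran from 5.15 to 27.5 with a median of 8.87, and 18 of 29 met both. In scd-1 they ran from 6.32 to 34.6 with a median of 16, 20 of 25 met both, and the highest was in the consensus together with linc-142 inside the gene. Over all X regions the median was 9.27 and the upper quartile 13.9, so only the nhr-27 median was below that of X.

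Genes with many regions also lay on the autosomes. On X 39 genes (1.43%) had 10 or more summits inside, against 0.821 to 2.35% of the genes of each autosome. Those 39 genes held 589 of the X regions (14%), against 12.2 to 16.3% for the like genes of each autosome. Neighbouring summits in a gene can share 1 replicate region, so they are not independent.

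**Figure D5:**
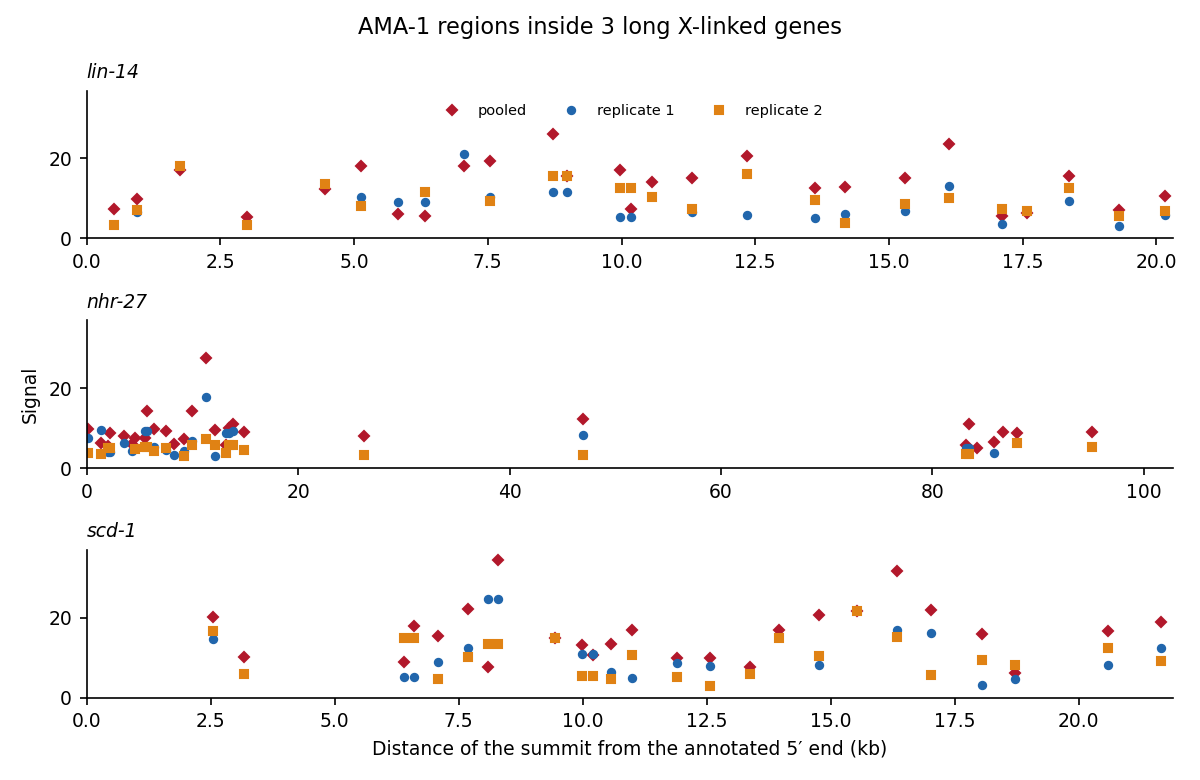
Signal of each region with its summit inside lin-14, nhr-27 and scd-1 is plotted against the distance of the summit from the annotated 5′ end in kb, for the pooled list (red diamonds) and for the overlapping regions of replicate 1 (blue circles) and replicate 2 (orange squares). The regions of lin-14 and scd-1 are spread over most of the gene, whereas those of nhr-27 gather near its ends, and no pooled value exceeds 34.6.

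Short words in 200 bp centred on the summit, on both strands, were counted as a description of sequence. GAGAGA occurred in 50 of the 139 X consensus regions (36.0%), 29.8% of autosomal consensus regions, 14.9% of all X regions and 16.8% of all autosomal regions. It thus stood higher in the consensus than in the whole list on X and on the autosomes alike, and in the highest 1328 regions of each replicate it occurred in 31.5 and 30.4% of those on X, and 28.7 and 28.9% of those on the autosomes, for replicates 1 and 2. CACGTG, the E-box bound by Mad and Max factors, occurred in 10.8% of X consensus regions, 7.40% of autosomal ones, 4.72% of all X regions and 4.78% of all autosomal ones. Among the 1328 highest of each replicate it occurred in 8.46% on X and 7.68% on the autosomes in replicate 1, and in 6.96% on X and 5.73% on the autosomes in replicate 2. GTAAACA, a forkhead site, occurred in 6.47% of X consensus and 2.61% of autosomal consensus regions, and in both replicates X was the higher one, with 5.38 against 2.84% in replicate 1 and 4.43 against 2.65% in replicate 2. TATAAA occurred in 18.7% of X consensus and 14.8% of autosomal consensus regions, and the GATA-type word TGATAA in 14.4% of the X and 13.2% of the autosomal ones. The order for TATAAA was not the same in the single replicates, with 18.5% on X and 14% on the autosomes among the 1328 highest regions of replicate 1, and 13.9% on X and 15.3% on the autosomes in replicate 2. TTTCAG, the 3′ splice site word of this species, was lower on X, in 27.9% of all X regions and 34.1% of all autosomal ones, and in 18.7% of X and 24.6% of autosomal consensus regions.

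The word GCGCAGGG is the core of a motif known from sites where the dosage compensation complex is loaded onto X. It occurred in 9 of the 4216 X regions (0.213%) and in 14 of 25784 autosomal ones (0.0543%), of which 8 were on chromosome III. In the consensus it occurred in 4 of 139 X regions (2.88%) and in 2 of 1189 autosomal ones (0.168%). Among the 1328 highest regions of single replicates the X counts were 3 of 130 for replicate 1 and 2 of 158 for replicate 2, and the autosomal counts 1 of 1198 and 3 of 1170. These are few regions and the word is known to be enriched on X, so the counts describe the match only. A match is not a binding site, and the length of 8 letters leaves the rest of the motif unread.

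The 3 X consensus regions with the core outside untranslated sequence are shown to give its place, as 200 bases of the plus strand centred on the summit. Capitals mark GCGCAGGG or its reverse, CCCTGCGC, and matches to TATAAA and TTTCAG. They are in a coding exon of mom-1 (chrX:6296386-6296585), a gene of Wnt secretion, between genes near W02H3.3 (chrX:11094101-11094300) and between genes near hpk-1 (chrX:4209179-4209378), a homeodomain-interacting kinase gene. These loci were chosen for the match, after it was seen.
mom-1: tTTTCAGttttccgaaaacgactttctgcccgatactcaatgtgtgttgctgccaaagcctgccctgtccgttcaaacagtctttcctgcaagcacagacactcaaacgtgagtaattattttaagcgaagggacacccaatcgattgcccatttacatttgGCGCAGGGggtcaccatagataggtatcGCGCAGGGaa
near W02H3.3: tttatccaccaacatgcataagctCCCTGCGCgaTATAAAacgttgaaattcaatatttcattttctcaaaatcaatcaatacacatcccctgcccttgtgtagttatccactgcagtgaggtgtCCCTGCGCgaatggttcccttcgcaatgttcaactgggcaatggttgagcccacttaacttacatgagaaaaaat
near hpk-1: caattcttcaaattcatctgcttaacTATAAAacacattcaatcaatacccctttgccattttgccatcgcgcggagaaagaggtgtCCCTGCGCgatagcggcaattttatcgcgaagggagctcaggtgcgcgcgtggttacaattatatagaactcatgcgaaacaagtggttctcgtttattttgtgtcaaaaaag

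The core occurs in 2 places in the mom-1 sequence and in the one near W02H3.3, and in 1 place near hpk-1. Pooled signal was 51.0 at mom-1, with 30.7 in replicate 1 and 18 in replicate 2. It was 49.7 near W02H3.3, with 34.7 and 12.7, and 39.4 near hpk-1, with 28 and 9.11, for replicates 1 and 2. The fourth region, at the 5′ end of R04E5.9, had 38.1, with 21.6 and 17.1. All 4 were higher in replicate 1, as were most X consensus regions. The median GC share around the summit was 43.0% in X consensus regions, against 40.5 to 42% on each autosome, and 37.5% in all X regions, against 36.5 to 37.5%.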

How the data were processed

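The authors deposited, per the file headers and descriptions, 1 list of 30000 regions for each replicate, derived from its alignments and a control, 1 from the pooled alignments, and a consensus from an irreproducible discovery rate analysis, on ce10 and ce11. Each region has the deposited signal value and the deposited −log10 q-value, which reached an upper limit at 403 X regions and was used for 1 alternative only. Caller, thresholds, antibody source and read depth: not given in the sources used here. Signal was used as deposited, and separate libraries were set side by side.

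Genes came from Ensembl release 115 (WBcel235) and microRNA arms from RefSeq. A pooled region met a replicate region with an overlap of at least 1 bp, and took the highest signal among those it met. A gene's window ran from its 3′ end to 500 bp before its 5′ end, and a summit inside counted for it, so a summit can serve several genes, and strands were not separated. Intervals are exact (Clopper-Pearson, 95%) and cover counting only; limits for a count of 0 use 3 counts. Python 3.11.15, numpy 2.4.6, pandas 2.3.3, scipy 1.17.1 and matplotlib 3.10.9 were used, and placement and overlap were tested on simulated regions.

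The regions, gene lists, words and alternatives were chosen with earlier results of these data known. Named were the 20 X regions of highest signal, the 3 highest of each place and of each gene list on X, consensus regions missing from 1 replicate, the 5 X consensus regions with the largest ratio of replicate ranks and those beside the consensus limit. The groups of summits, genes with many regions, genes with a region at each end, tRNA genes and loci with a core word were chosen after their values were seen.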

Additional observations from a re-analysis of the deposited data

How the results depend on the processing

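The ratio of median signal at X regions to that at autosomal regions was 0.964 and stayed under 1 in all the alternatives run. It ran from 0.933 to 0.968 with 1 replicate's list alone, and was 0.923 with means in place of medians. The share of X in the list was 14.1% and ran from 13 to 16.4% with 1 replicate's list alone. The consensus count of 139 was 130 to 158 when each replicate's own 1328 highest regions were taken, and 66 above the median consensus signal, which leaves fewer regions by construction. The share of X summits at 5′ ends, 20.8%, ran from 19.7 to 20.6% by replicate and was 12.1% with a window of 250 bp and 35.9% with 1000 bp. The autosomal share was 17.2% and 42.8% with those windows, so X stayed lower. X regions met by both replicates numbered 2272, and 1115 where summits had to lie within 100 bp of each other. X-linked protein-coding genes with a consensus summit numbered 76, ran from 64 to 86 by replicate, and were 30 above the median consensus signal. Lists on ce10, regions of at least 90% unique words, other gene windows, an overlap of at least 50% of the shorter region and q-values in place of signal moved no result by more than 1.5 times or by more than the spread of the replicates. No paired analysis was possible because there is 1 group and no test was made. Depth is unknown, lists of fixed length hide regions below their last rank, and no absence of polymerase can be read from them.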
